A study of Mus musculus with 1049 samples.

Results

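The 4 genes described here are Apoe, Apod and Clu, which encode secreted apolipoproteins, and Lrp1, which encodes a receptor that takes up apolipoprotein E. They were 4 of the 51777 genes counted in single dermal fibroblasts, and they were chosen by their measured levels in newborn, young and old cells. Those levels are therefore given as a description, with no test.

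The fibroblasts came from the skin of C57Bl/6 mice fed standard chow, and the labels name no transgene and no treatment. The newborn group was taken at 1.5 or 2.5 days, the young group at 2 months and the old group at 18 months. Skin was shaved, anagen patches were removed and the layer below the dermis was scraped off. Cells were stained for CD45, CD117, EpCam and CD31, found on leukocytes, mast cells, epithelium and endothelium. Stains for Pdgfra and CD34 were added, and cells were sorted singly into plates and sequenced with Smart-seq2. That method covers whole polyadenylated transcripts without molecular identifiers, so reads of a gene are not independent molecules. The values used were 735 cells, 249 newborn, 246 young and 240 old, from 2 experiments on 9 plates that each held all 3 ages. The labels name no mice, so the number of animals behind each age is not known here. Reads were added over the cells of each age and experiment, which gave 6 sums and n = 2 per age, and p-values measure only the spread between these sums.

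Apolipoproteins are the protein part of lipoprotein particles, which carry cholesterol, phospholipids and triglycerides between cells. Apolipoprotein E is made by the liver and by macrophages and is also released by many other cells, where it accepts cholesterol and binds receptors of the LDL receptor family. Apolipoprotein D is a lipocalin that binds arachidonic acid and other small lipids, and clusterin, encoded by Clu, is an extracellular chaperone that is also known as apolipoprotein J. Lrp1 is a large endocytic receptor of that family that clears proteases, matrix proteins and lipoprotein remnants, and LXR nuclear receptors are known to induce Apoe when sterols accumulate.

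The positions below are those of GENCODE M21 on the build GRCm38. Apoe (ENSMUSG00000002985) lies on the minus strand of chr7:19696109-19699188, and its merged exons span 2138 bases. Apod (ENSMUSG00000022548) lies on the minus strand of chr16:31296192-31314808 and has 2577 exon bases. Clu (ENSMUSG00000022037) lies on the plus strand of chr14:65968483-65981547 and has 3437 exon bases. Lrp1 (ENSMUSG00000040249) lies on the minus strand of chr10:127538161-127621148 and has 17717 exon bases. The antisense gene Gm16217 lies within Lrp1, and the strand setting of the counting is not given in the sources used here, so reads of that overlap cannot be assigned to a strand.

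Apoe, Apod and Lrp1 were all higher in adult than in newborn sums, and the 250 bases before the start of each are shown to compare their promoters. They were taken from RefSeq on GRCm38.p6, which held 3 of the 4 genes, and run 5' to 3' on the strand of the gene at chr7:19699189-19699438, chr16:31314809-31315058 and chr10:127621149-127621398. The only motif found is in capitals.
Apoe: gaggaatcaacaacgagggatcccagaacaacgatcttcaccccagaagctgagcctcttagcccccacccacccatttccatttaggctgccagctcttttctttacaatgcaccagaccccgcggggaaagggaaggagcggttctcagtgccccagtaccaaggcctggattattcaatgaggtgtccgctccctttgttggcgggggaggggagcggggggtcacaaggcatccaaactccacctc
Apod: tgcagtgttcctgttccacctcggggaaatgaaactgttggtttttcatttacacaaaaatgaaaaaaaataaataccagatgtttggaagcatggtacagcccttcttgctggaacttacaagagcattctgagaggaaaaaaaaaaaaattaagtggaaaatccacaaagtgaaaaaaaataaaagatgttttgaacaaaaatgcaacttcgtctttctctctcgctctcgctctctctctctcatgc
Lrp1: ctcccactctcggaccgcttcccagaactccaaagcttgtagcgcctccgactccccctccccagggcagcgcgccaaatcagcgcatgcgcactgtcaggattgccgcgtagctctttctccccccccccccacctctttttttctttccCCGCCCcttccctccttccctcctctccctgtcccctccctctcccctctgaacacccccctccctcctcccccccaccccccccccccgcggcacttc
Searched on both strands were the TATA box TATAAA, the GC box GGGCGG, the CCAAT box CCAAT, the LXR repeat (a pair of AGGTCA sites with 4 bases between them) and the AP-1 site TGANTCA. The single match was a GC box in Lrp1, which reads CCGCCC on the strand shown and begins 99 bases before the start; no motifs overlapped. Among 32851 promoters of the same length, 12.4% held TATAAA, 32.7% the GC box, 33.8% CCAAT, 0.0152% the LXR repeat and 6.75% the AP-1 letters. A match here describes letters in this window and no bound factor.

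The 6 sums held 119682449 to 195324769 reads on genes. Newborn cells had a median depth of 1068178 reads, young cells of 1187652 and old cells of 1381116, with a median of 2390, 2130 and 1981.5 genes read. Of the 7 fibroblast markers fixed for the check (Col1a1, Col1a2, Col3a1, Dcn, Lum, Pdgfra and Pdgfrb), all had reads in each sum, and their summed level was 66305 to 79545 CPM in the newborn, 180914 to 184016 in the young and 136222 to 143636 in the old sums. Macrophages are a known source of apolipoprotein E. Of 10 macrophage markers, Ptprc, Adgre1, C1qa, C1qb, C1qc, Mrc1 and Fcgr1 had 0 reads in the 735 cells, and a count of 0 allows up to 0.408% of cells with a read. Here and below, such a limit is 3 divided by the number of cells. It takes cells as independent, but cells of a sum share mice, plates and preparation, so the true limit can be higher. The summed level of the list, from Csf1r, Cd68 and Lyz2, was 0 to 2.09 CPM in the newborn, 45.7 to 170 in the young and 11.5 to 26.8 in the old sums.

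Apoe was the most abundant of the 4 genes in old cells, and its ages stood in 1 order in both experiments. Levels are in CPM, the reads of a gene per 1000000 reads of a library whose size was adjusted by its TMM factor. Apoe reached 77.2 and 56.2 CPM in the newborn sums of experiments 1 and 2, 2411 and 2610 in the young sums, and 8365 and 8299 in the old sums. The sums of the 3 ages did not overlap, and the order was newborn, young, old. Some marker lists of other cells were also higher in adult than in newborn sums, and of these only the keratinocyte list had the order of Apoe. The pericyte and smooth muscle, adipocyte and hair follicle mesenchyme lists were lower in adult sums. The 6 keratinocyte markers summed to 19.0 to 33.7 CPM in the newborn, 43.6 to 47.3 in the young and 57.1 to 70.9 in the old sums. Adult reads came from Krt10 and, in 2 old cells, Krt14. Krt5, Krt1, Epcam and Cdh1 had reads in newborn sums and 0 adult reads. The 6 endothelial markers summed to 5.65 to 23.5, 44.5 to 82.0 and 63.2 to 74.3 CPM, largely from Plvap, with 0 reads of Cdh5, Tie1 and Emcn. Endothelial young and old sums overlapped. The macrophage list was also higher in adult than in newborn sums, and lower in old than in young sums. The part of these lists in the levels of Apoe was not tested. The mean of Apoe was 66.7 ± 14.8 CPM in the newborn, 2510 ± 141 in the young and 8332 ± 46.6 in the old sums (SD, n = 2). Old sums held 3.32 times the young level, 3.47 times in experiment 1 and 3.18 times in experiment 2, and young sums held 37.6 times the newborn level. In the edgeR fit these differences were 1.73 ± 0.21 and 5.23 ± 0.25 on the log2 scale (estimate ± SE).

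**Figure D1:**
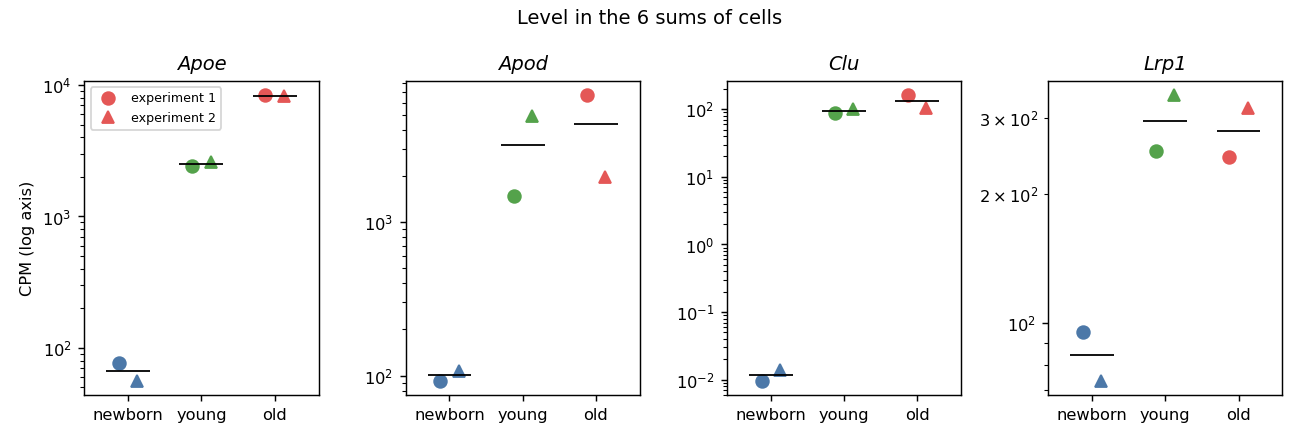
Level of Apoe, Apod, Clu and Lrp1 in the 6 sums of cells, in CPM on a log axis that differs between panels. Circles are experiment 1, triangles experiment 2 and lines the mean of the 2 sums of an age. Apoe stands in 3 separate steps, and the 2 experiments cross for Apod between young and old.

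The order of the ages for Apoe was the same on every plate. The 9 plates ranged from 18.5 to 215 CPM in the newborn, 1229 to 2930 in the young and 5173 to 10219 in the old cells. Young cells were above newborn cells on 9 of 9 plates and old cells above young cells on 9 of 9 plates, with old to young ratios of 2.33 to 5.51. Each plate held all 3 ages, so these comparisons lie within a plate. The 9 plates come from 2 experiments and are not independent replicates, so n stays at 2 per age.

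In single cells the ages differed both in how many cells held an Apoe read and in how much they held. With every cell thinned to 100000 reads, a read of Apoe was found in 22.2% and 29.7% of the newborn cells of experiments 1 and 2. The share was 64.1% and 60.6% in the young cells and 72.2% and 73.7% in the old cells. With all reads the shares were 25.9% and 41.8%, 66.2% and 67.3%, and 77.0% and 78.9%. Part of the cells with a read held very little. Of the newborn cells with an Apoe read, 9 of 41 in experiment 1 and 17 of 38 in experiment 2 were under 10 CPM, against 3 of 94 and 7 of 70 young cells and 7 of 97 and 6 of 90 old cells.

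The larger step between young and old was in the amount per cell. Among cells with a read, the median was 1858 and 2089 CPM in the young and 7593 and 7237 CPM in the old cells, against 350 and 72.0 CPM in the newborn cells. Over all cells, including those without a read, the median was 0 in both newborn sums, 742 and 417 CPM in the young and 3921 and 4576 CPM in the old cells. The upper end moved too. The highest newborn cell held 3480 CPM, the highest young cells 18670 and 22977 CPM and the highest old cells 40817 and 48705 CPM. Over 10000 CPM of Apoe was found in 0 newborn cells, 6 of 142 and 2 of 104 young cells, and 39 of 126 and 35 of 114 old cells.

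Cells without Apoe remained at every age. In old sums 23.0% and 21.1% of cells had no Apoe read at full depth, beside cells far over 10000 CPM. The coefficient of variation between cells was 3.10 and 2.61 in the newborn, 1.52 and 1.73 in the young and 1.20 and 1.18 in the old cells. The tenth of cells with the most Apoe held 78.4% and 79.0% of its reads in the newborn, 55.4% and 63.6% in the young and 44.8% and 49.3% in the old sums. The reads of Apoe were thus spread over more cells in old than in newborn sums, in both experiments. The 10 cells with the most Apoe, 25828 to 48705 CPM, were all old; 9 of them held at least 5 of the 7 fibroblast markers. In the same 10 cells 0 held a macrophage marker, 2 a pericyte or smooth muscle marker and 1 a Schwann cell marker. Of all old cells, 7 of 126 and 16 of 114 held a macrophage marker in experiments 1 and 2. A Schwann cell marker was held by 4 and 5 of them, and at least 3 fibroblast markers by 125 and 114. Counts in 10 cells are too few to be told from these shares.

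**Figure D2:**
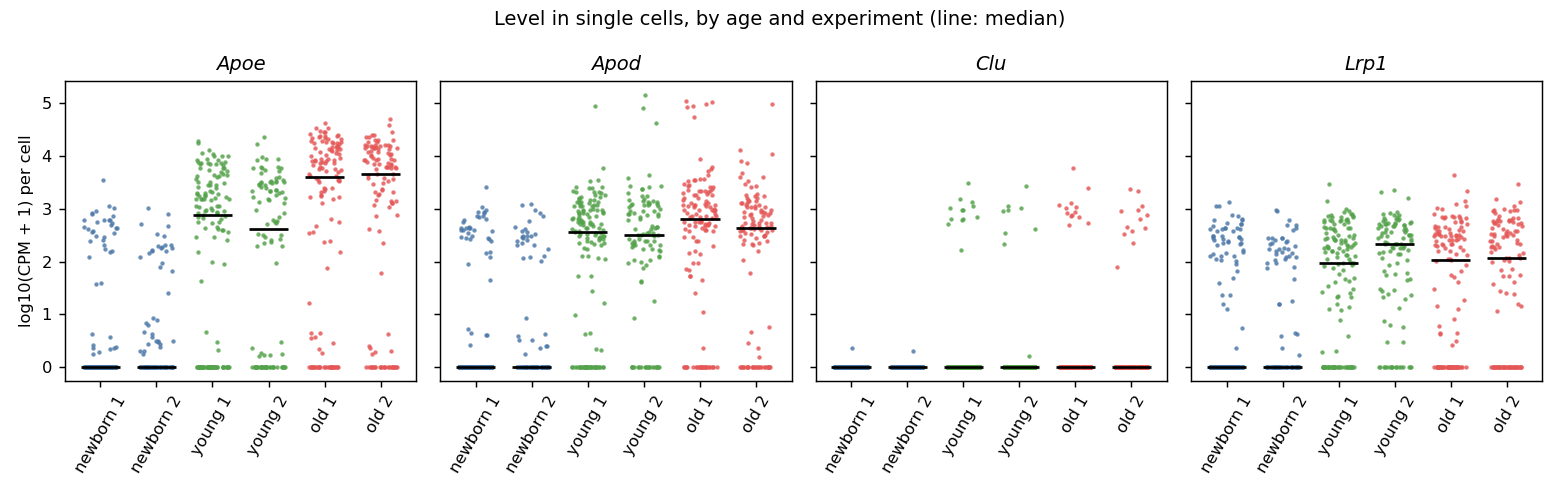
Level of the 4 genes in each kept cell as log10(CPM + 1), by age and experiment; each point is a cell and each line the median. Apoe has a band of cells without a read at every age and an upper band that stands highest in old cells, Apod has a few cells near 5 on this axis, and Clu has reads in few cells.

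Apoe lies in a cluster of apolipoprotein genes on chromosome 7. Its neighbours Apoc1, Apoc2 and Apoc4 encode small apolipoproteins, and Tomm40 encodes the pore of the mitochondrial import complex. Apoc1 held 6 reads in the newborn, 118 in the young and 622 in the old sums, and had a read in 8 of 735 cells. Apoc2 and Apoc4 had 0 reads in every sum. Tomm40 was at 29.9 and 32.6 CPM in the newborn, 29.2 and 26.2 in the young and 19.8 and 14.7 in the old sums, so it did not share the order of Apoe.

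Apod differed between newborn and adult cells as Apoe did, but its young and old sums stood in opposite order in the 2 experiments. It reached 92.8 and 108 CPM in the newborn sums, 1476 and 4919 CPM in the young sums and 6700 and 1966 CPM in the old sums. Both adult ages were above both newborn sums, and the young and old sums overlapped. The old sum held 4.54 times the young level in experiment 1, while the old sum was 2.50-fold lower than the young sum in experiment 2. The fit gave 0.44 ± 0.78 on the log2 scale for old against young, which turned to -0.18 and -0.72 without the young or the old sum of experiment 1, and 4.99 ± 0.92 for young against newborn. By plate, old cells were above young cells on 5 of 5 plates of experiment 1, at 1.47 to 27.7 times, and on 2 of 4 plates of experiment 2, at 0.110 to 5.08 times.

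**Figure D3:**
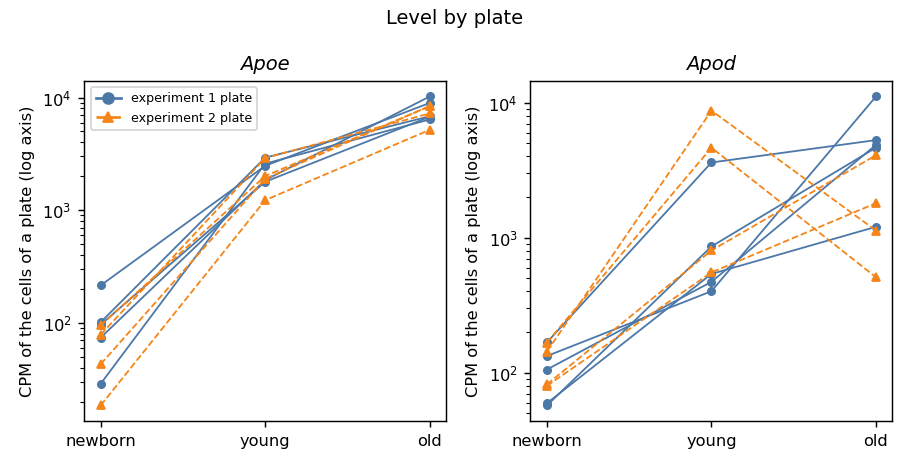
Level of Apoe and Apod in the cells of each plate, by age, in CPM on a log axis. Each line is 1 of 9 plates, 5 of experiment 1 and 4 of experiment 2. All 9 lines climb from young to old for Apoe, and 7 of 9 do for Apod.

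The share of cells with Apod crossed between experiments too, and the median did not. After thinning, a read was found in 22.2% and 33.0% of the newborn, 72.5% and 80.8% of the young and 78.6% and 74.6% of the old cells. The median over all cells was 0 in the newborn, 364 and 315 CPM in the young and 631 and 433 CPM in the old cells, so it was higher in old than in young cells in both experiments. A few cells held most Apod reads. The single cell with the most Apod supplied 47.1% and 41.5% of the reads of the young sums and 27.4% and 51.4% of those of the old sums, against at most 17.2% for Apoe in an adult sum.

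These cells formed a group apart on the Apod scale. Of 486 adult cells, 11 held 42132 to 143010 CPM of Apod and the next cell held 12934 CPM; the limit of 30000 CPM that parts them was chosen after the values were seen. They were 1 and 3 young cells and 6 and 1 old cells of experiments 1 and 2, with 0 newborn cells, on 7 of 9 plates. They carried 47.1% and 85.0% of the Apod reads of the young sums and 84.6% and 51.4% of those of the old sums. Without them Apod was at 786 and 768 CPM in the young and 1097 and 966 CPM in the old sums. Those 4 values no longer overlapped between ages: old was above young 1.40 times in experiment 1 and 1.26 times in experiment 2. With them left out, young against newborn was 2.95 on the log2 scale in place of 4.99.

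The 11 cells differed from the other 475 adult cells in many genes. Genes are named by the difference in the share of cells with a read, 8 on each side, as a description with no test. Young and old cells are pooled in these comparisons, and 7 of the 11 cells were old. More often read were Mgp, which encodes an inhibitor of calcification, in 11 of 11 against 7 of 475 cells, the ferroxidase gene Cp in 11 against 65, and Spp1, which encodes osteopontin, in 9 against 1. The chemokine gene Cxcl1 was read in 10 against 79, Steap4 in 8 against 10, Myoc in 8 against 13 and the protease inhibitor gene Serpine2 in 8 against 15. Cdh19, a cadherin gene known from Schwann cell precursors, was read in 8 of the 11 cells and in 0 of 475, which allows a share of up to 0.632%.

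Genes that most other adult cells held were rarely read in the group. Ly6a, which encodes Sca1, was read in 1 of 11 against 471 of 475 cells, Ly6c2 in 1 against 455 and Ly6c1 in 2 against 465. The chemokine gene Ccl19 was read in 0 against 410, Pcolce2 in 1 against 434, the matrix gene Dpt in 0 against 380, Cyp2f2 in 1 against 405 and Lgals3 in 2 against 434. Ly6c1 and Ly6c2 are near-identical copies, so their counts are uncertain. Fibroblast genes were read in the group to differing extents. Dcn was read in 11 of 11 cells at a mean of 127048 CPM, against 99409 CPM in the rest, and Col1a2 in 9 of 11 at a mean of 1308 CPM against 12468 CPM. Col1a2 also differed by age, at 23478 and 18449 CPM in the young and 5436 and 4092 CPM in the old sums. Pdgfra was read in 3 of 11 and 141 of 475 cells. Of the 10 cells with the most Apod, 6 held at least 5 of the 7 fibroblast markers, 7 a Schwann cell marker, 1 a pericyte marker and 0 a macrophage marker. Over all cells, a Schwann cell marker was held by 4 of 142 and 5 of 104 young and 4 of 126 and 5 of 114 old cells. A macrophage marker was held by 30 and 25 young and 7 and 16 old cells.

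**Figure D4:**
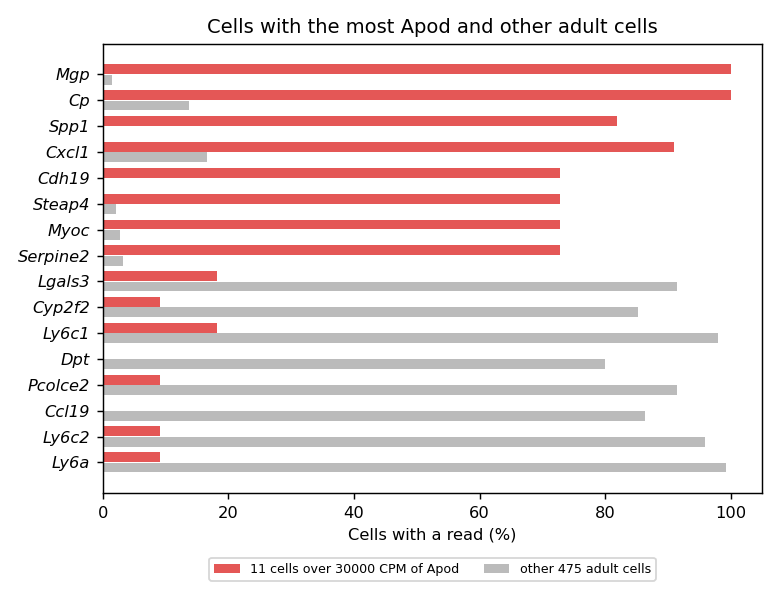
Share of cells with a read of 16 genes, in percent, in the 11 adult cells over 30000 CPM of Apod (red) and in the other 475 adult cells (grey). The 8 genes read more often in the 11 cells are at the top, and the 8 read less often, such as Ly6a and Dpt, at the bottom.

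Schwann cell markers moved with this group, and their part in the result was not tested. Sox10, which defines the type, had 0 reads in all 735 cells. In the 11 cells Mbp was read in 0, S100b in 2, Ngfr in 1 and Cdh19 in 8. The summed level of these 5 markers was 1.66 to 3.47 CPM in the newborn, 18.1 to 25.8 in the young and 12.1 to 41.6 in the old sums. In 1 cell, of the old sum of experiment 1, at least 3 Schwann cell markers had reads. Without that cell the fitted old to young difference of Apod was 0.10 on the log2 scale in place of 0.44. Depth was close, with a median of 1421880 reads per cell against 1282070 in the other adult cells, and a median of 1678 against 2069 genes was read.

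The other 3 genes stood differently in the 11 cells. Apoe was read in 11 of 11, at 725 to 14329 CPM and a mean of 6006 CPM, against 340 of 475 and a mean of 4789 CPM. Lrp1 was read in 3 of 11 against 339 of 475, and its mean was 42.2 against 271 CPM. Clu was read in 0 of 11, which allows a share of up to 27.3%, against 48 of 475. Enpp2, which encodes the enzyme that makes lysophosphatidic acid, was read in 9 of 11 against 64 of 475.

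Clu was almost without reads in newborn cells and was held by a small part of adult cells. It had 2 reads in 1 cell of each newborn sum, 0.00968 and 0.0140 CPM. It reached 87.5 and 100 CPM in the young sums and 161 and 105 CPM in the old sums. The adult sums were far above the newborn sums, and the old sums did not overlap the young sums but lay only 1.84 and 1.04 times above them in experiments 1 and 2. At full depth a read was found in 9.15% and 8.65% of the young cells and 10.3% and 11.4% of the old cells, so 48 adult cells in all carried it. In those cells the median was 929 and 886 CPM in the young and 851 and 637 CPM in the old cells.

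The old to young difference of Clu rested on few cells. The fit gave 0.50 ± 0.33 on the log2 scale, with 0.14 to 0.77 when a sum was left out, and old cells were above young cells on 5 of 9 plates, at 0.0162 to 5.14 times. In the old sum of experiment 1, 1 cell held 43.4% of the Clu reads, at 5964 CPM. Of the 10 cells with the most Clu, 4 young and 6 old, 3 held a read of a macrophage marker and 9 held at least 5 fibroblast markers. Over all cells, a macrophage marker was held by 30 of 142 and 25 of 104 young and 7 of 126 and 16 of 114 old cells.

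Lrp1, the receptor gene, was higher in adult than in newborn sums, and its young and old sums overlapped. It reached 95.2 and 73.4 CPM in the newborn sums, 251 and 339 CPM in the young sums and 244 and 316 CPM in the old sums. The newborn sums lay below all 4 adult sums. Young sums held 3.50 times the newborn level, 2.64 times in experiment 1 and 4.61 times in experiment 2. The old to young difference was -0.07 ± 0.29 on the log2 scale, and old cells were above young cells on 4 of 9 plates.

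Of the 4 genes, Lrp1 alone had a lower share of cells with a read in old than in young cells in each experiment. After thinning, a read was found in 34.2% and 41.8% of the newborn, 66.9% and 78.8% of the young and 58.7% and 64.9% of the old cells. Among cells with a read the median was 269 and 160 CPM in the newborn, 203 and 280 CPM in the young and 298 and 320 CPM in the old cells. The difference between newborn and adult sums thus came with a larger share of cells holding Lrp1. Among cells that held it, the newborn and young medians overlapped, and both old medians lay above them. Young cells were above newborn cells on 8 of 9 plates.

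Per length the 4 genes kept a wide range of levels. In old sums the mean was 3897 CPM per kilobase of exon for Apoe, 1681 for Apod, 38.6 for Clu and 15.8 for Lrp1. In young sums it was 1174, 1241, 27.3 and 16.7, so Apod and Apoe, whose young sums overlapped on this scale, stood side by side there. In newborn sums it was 31.2 for Apoe, 39.0 for Apod, 4.76 for Lrp1 and 0.00345 for Clu. The order of Clu and Lrp1 was thus reversed between newborn and adult sums.

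In the test across 16684 genes, the quasi-likelihood test of edgeR, adjusted by Benjamini-Hochberg with a threshold of 0.05, called 0.779% of genes in young against newborn, 0.935% in old against newborn and 0% in old against young. Of the 4 genes, Apoe and Clu were among those called higher in both adult ages against newborn, Apod and Lrp1 were not, and 0 of 4 passed in old against young. Since these contrasts chose the genes, nothing is read from that count. The adult comparisons with newborn share the newborn sums. In old against young 810 genes had an unadjusted p under 0.05, and DESeq2 called 1048.

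The genes that varied with Apoe from cell to cell were compared within each adult sum, as a description with no p. Spearman's rho was computed over 142 and 104 young and 126 and 114 old cells for the 2311 genes read in 20% or more of the cells in each of these sums. Cells of a sum share mice, plates and preparation. Across the genes the mean of the 4 rho had a median of -0.00102, and 2.5% of genes lay under -0.118 and 2.5% over 0.121. Only C3 reached a mean of 0.3, and only Col3a1 reached -0.3. All others named here are called weak by their mean, though some passed 0.3 in size in single sums.

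C3, the central component of complement, stood highest. Its rho with Apoe was 0.16 and 0.29 in the young and 0.34 and 0.47 in the old cells, a mean of 0.32. C3 itself was at 1123 and 626 CPM in the young and 929 and 918 CPM in the old sums, and at 0 and 0.0562 CPM in the newborn sums. It was followed by Tnfaip6, which encodes a hyaluronan-binding protein, at a mean of 0.26, and the secreted glutathione peroxidase gene Gpx3 at 0.25. The others of the 10 highest were Ifi211, Serping1, Ifi205, Rarres2, Ccl19, Penk and Serpinf1, from 0.24 down to 0.19. Gpx3 had rho of 0.37 and 0.34 in the young and 0.15 and 0.17 in the old cells. Serping1 had 0.35 and 0.32 in the young and 0.14 and 0.16 in the old cells. For C3 the old values were the higher ones. Serping1 encodes the inhibitor of complement C1, Rarres2 the chemoattractant chemerin and Serpinf1 pigment epithelium-derived factor. The rule for naming these genes required 1 sign in the 4 adult sums, so their shared sign is no evidence.

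The 5 lowest genes were Col3a1, Sparc, Gm42674, S100a4 and Col1a1, named by the same rule. Col3a1, a fibrillar collagen gene, had rho of -0.27 and -0.49 in the young and -0.25 and -0.28 in the old cells, a mean of -0.33. Sparc, a collagen-binding matricellular gene, had a mean of -0.27 and Col1a1 of -0.25. S100a4 and Gm42674, which overlap on chromosome 3 and can share reads, had -0.25 and -0.26. Col1a2, another chain of type I collagen, had -0.20, while the proteoglycan gene Dcn had 0.09. Col3a1 itself was at 26593 and 23120 CPM in the newborn, 19845 and 18477 CPM in the young and 3613 and 3270 CPM in the old sums. In newborn cells rho with Col3a1 was -0.07 and 0.03, where most cells had no Apoe read.

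**Figure D5:**
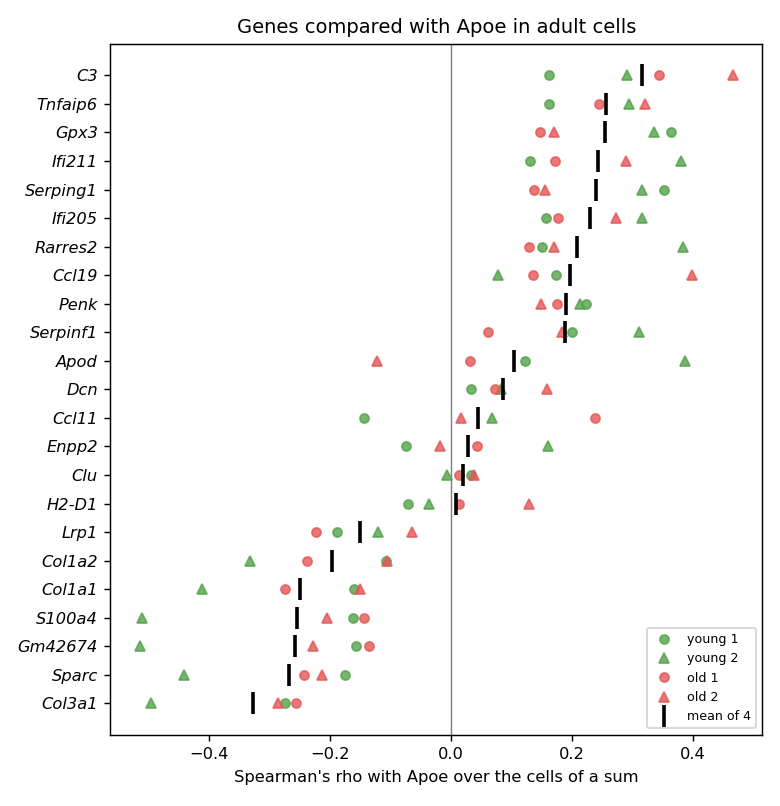
Spearman's rho with Apoe over the cells of each adult sum, for the 10 highest and 5 lowest genes by mean and for 8 genes compared whatever their rank. Green is young, red old, circles experiment 1, triangles experiment 2 and bars the mean of 4. C3 is at the top with a mean of 0.32 and Col3a1 at the bottom with -0.33.

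The 4 genes did not rise and fall together between cells. Apoe and Apod had rho of 0.12 and 0.39 in the young but 0.03 and -0.12 in the old cells. Apoe and Lrp1 were negative in each adult sum, at -0.19, -0.12, -0.22 and -0.06, and Apoe and Clu lay between -0.01 and 0.04. Apod and Lrp1 had the largest mean in size, -0.26, from -0.17 to -0.33 in the 4 sums. Of the other genes compared whatever their rank, Ccl11, Enpp2 and H2-D1 had means of 0.05, 0.03 and 0.01, with both signs among the sums. Dlk1 had 0 reads in 3 of the 4 adult sums and got no mean. For Apoe, rho with reads per cell was -0.12 to 0.19, with genes per cell -0.14 to 0.10 and with the mitochondrial share -0.24 to -0.05 in adult sums.

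Other genes of lipoprotein biology were read from 5 lists. Of 21 other apolipoprotein genes, 8 had reads, 4 were tested and 0 passed in any comparison. Apol9a and Apol9b, near-identical copies whose counts are uncertain, had 0 reads in newborn sums and means of 7.40 and 6.95 CPM in the young and 4.64 and 5.52 CPM in the old sums. Apoc1 was at 0.0145 CPM in the newborn, 0.405 in the young and 1.73 in the old sums, and Apoa1, the main protein of HDL, had 722 reads in the newborn sum of experiment 1 and 0 elsewhere. Apoe and Apod were thus the apolipoprotein genes over 1000 CPM in adult sums. Of the 4 tested genes 3 had 0 newborn reads, so they passed the filter on low counts only through adult reads. Apoa1, read only in newborn cells, was not tested. The list's median against newborn was set by that filter and is not compared with all genes. It was 10.24 on the log2 scale in young against newborn, and 7.18 with genes at 0 set to their bound from a floor of 3 reads per age. In old against newborn it was 9.67, or 9.08 with bounds, and in old against young -0.50.

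Among 24 lipoprotein receptors and their partners, 21 had reads, 18 were tested and 0 passed in any comparison. Lrpap1, the chaperone that Lrp1 needs to reach the surface, was at 370 ± 78.8 CPM in the newborn, 398 ± 96.8 in the young and 335 ± 31.9 in the old sums (SD, n = 2). The adaptor gene Dab2 was at 138, 131 and 75.6 CPM, Gulp1 at 60.4, 70.5 and 63.1 CPM, and Mylip, an LXR target whose product degrades the LDL receptor, at 26.1, 107 and 78.01 CPM. The list's median log2 difference was -0.17 in young against newborn, -0.73 in old against newborn and -0.74 in old against young (-0.79 with bounds), beside -0.07, -0.08 and 0 over all genes.

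The LXR and lipid efflux list held 17 genes, all tested, and 0 passed in any comparison. Npc2, which carries cholesterol out of lysosomes, was at 333 and 215 CPM in the newborn, 901 and 1012 in the young and 897 and 1049 in the old sums. Abca1, the transporter that loads apolipoproteins with cholesterol, was at 10.9 and 17.9, 66.3 and 108, and 87.4 and 74.7 CPM. For both genes the newborn sums lay below all adult sums, as for Apoe, while young and old sums overlapped. Smpdl3a was at 26.6, 159 and 158 CPM and the desaturase gene Scd2 at 72.5, 95.3 and 110 CPM on average. The median log2 difference was 0.70 in young and 0.91 in old against newborn and 0.21 in old against young.

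Of 14 lipases and lipoprotein remodelling genes, 13 had reads and 10 were tested. Pla1a, which encodes a phosphatidylserine phospholipase, passed as higher in both adult ages, with edgeR adjusted p of 0.0387 in young and 0.0335 in old against newborn; of all genes, 0.719% and 0.797% were called in that direction. It had 0 reads in newborn sums, 46.4 and 96.7 CPM in the young and 47.9 and 101 CPM in the old sums. Pla1a thus passed the filter on low counts only through adult reads, and that filter set the direction of its calls. A read was found in 4.23% and 17.3% of the young and 7.14% and 11.4% of the old cells. The count of 0 in 249 newborn cells allows up to 1.20% of cells with a read. Reads are not independent molecules, so no fold against newborn is given. Pltp, the phospholipid transfer protein gene, was at 13.2 and 54.9 CPM in the newborn, 263 and 299 in the young and 324 and 490 in the old sums and did not pass. Lpl, the lipoprotein lipase gene, was at 127, 136 and 74.9 CPM, Angptl2 at 105, 84.6 and 138 CPM and the lipase inhibitor gene Angptl4 at 266, 72.5 and 38.3 CPM on average. The median log2 difference was 0.21 in young and 0.08 in old against newborn and -0.24 in old against young.

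Of 23 genes for other extracellular ligands of Lrp1, 19 were tested; 2 passed as higher and 1 as lower in each adult age against newborn, and 0 passed in old against young. Timp2, a metalloprotease inhibitor gene, was at 166 and 172 CPM in the newborn, 784 and 916 in the young and 946 and 1139 in the old sums, with edgeR adjusted p of 0.0243 and 0.0183 against newborn. C3, named above for its rho with Apoe, passed with 0.0324 and 0.0280. It had 8 newborn reads, so C3 also passed the filter on low counts only through adult reads, which set the direction of its calls. Ccn1, a matricellular gene, fell from 5506 and 5068 CPM in the newborn sums to 1268 and 1486 in the young and 805 and 839 in the old sums, with adjusted p of 0.0243 and 0.0106. Of all genes, 0.0599% and 0.138% were called lower in these comparisons. Of the members with the highest levels, Fn1 was at 533, 1366 and 1438 CPM, Thbs2 at 892, 752 and 717 CPM and Mmp2 at 597, 1348 and 696 CPM on average, none past the threshold. The median log2 difference was 0.50 in young and 0.32 in old against newborn and 0.02 in old against young.

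None of these 8 calls held each time 1 of the 6 sums was left out. In young against newborn, Pla1a, Timp2 and Ccn1 passed in 0 of 6 such fits and C3 in 1; in old against newborn Pla1a and Timp2 passed in 0, Ccn1 in 1 and C3 in 2. Their edgeR adjusted p values then ranged from 0.0338 to 0.195.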

How the data were processed

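Smart-seq2 libraries of single cells were analysed from raw counts of reads on each gene. The authors deposited these counts in 11 tables by plate. The submitters' processing notes name GRCm38 and FastQC; the sources used here give no aligner, counting program or strand. Of the values above 0, 73.8 to 76.6% were even in each table. Of 1049 columns, 5 without values were left out. In 2 pairs of tables the wells correlated at 0.994, against at most 0.430 elsewhere; both tables of a pair were treated as 2 sequencing runs of 1 plate, and their reads were added for 183 wells, which left 861 wells. Cells with at least 50000 reads, 1000 genes and at most 25% mitochondrial reads were kept. Of the genes, 51777 were in both annotations used, and 51633 were named by GENCODE M21. No doublet caller was run. Ages were fitted on the 6 sums with edgeR 4.0.16 in R 4.3.3 (TMM, filterByExpr, robust quasi-likelihood, age only; biological coefficient of variation 1.13, 3 residual degrees of freedom), checked on simulated counts. The alternatives were DESeq2 1.42.0, no filter, a replicate block, thinning to 100000 reads, all wells, mean CPM per cell, and leaving out marker-bearing cells or each sum.

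The members, lists and tests were chosen with earlier results of these data known. Genes most like Apoe were the 10 highest and 5 lowest by mean rho with 1 sign in the 4 adult sums. From each list, genes past the threshold and the 4 with the highest level are named.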

Additional observations from a re-analysis of the deposited data

Results flagged for a closer look

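Apod stood in opposite order in the 2 experiments. Its old to young ratio was 2.18 on the log2 scale in experiment 1 and -1.32 in experiment 2, a difference that was not tested, since each age has 1 sum per experiment. Without the 11 adult cells over 30000 CPM of Apod the ratios were 0.48 and 0.33. Those cells were 1 young and 6 old in experiment 1 and 3 young and 1 old in experiment 2.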

How the results depend on the processing

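With 2 sums per age, counts of calls depended on the tool and on single sums. In old against young, where edgeR called 0 genes, DESeq2 called 1048 and a fit without the filter on low counts 2; of the pathway lists DESeq2 called 6. In young against newborn edgeR called 130 genes, DESeq2 2380 and thinned cells 254, and leaving out each sum gave 0 to 42; of the lists 4 were called, 24 by DESeq2 and 0 to 1 with a sum left out. In old against newborn the counts were 156, 2850 and 281, and 0 to 47 with a sum left out; of the lists 4, 29 by DESeq2 and 0 to 2 with a sum left out. Such fits have 1 sum in an age, assumed to vary like the other ages.

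Sums of an experiment deviated together by little (r = 0.0387, 0.0266 and 0.0192), so the numbers were not taken as pairs. With the replicate block 0 genes passed in old against young, 25 in young against newborn and 51 in old against newborn, and 0 and 2 list genes in the latter comparisons. In young against newborn it moved the edgeR adjusted p of Pla1a to 0.0525, Timp2 to 0.0505, C3 to 0.108 and Ccn1 to 0.0549. In old against newborn Pla1a at 0.0511 and C3 at 0.0944 no longer passed, and Timp2 and Ccn1 were both at 0.0407.

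As the mean CPM per cell, the log2 differences of Apoe were 1.82 for old against young, 4.62 for young against newborn and 6.44 for old against newborn, and that of Lrp1 for old against young was 0.050. That of Lrp1 ranged from -0.28 to 0.15 with a sum left out. Apod in young against newborn ranged from 3.88 to 5.62 with a sum left out and was 2.95 without the cells over 30000 CPM, a setting chosen after seeing the data; in old against newborn it was then 3.36. Apod in old against young ranged from -0.72 to 1.55 with a sum left out. The number of genes with a mean rho of at least 0.3 in size was 1 to 2 with a sum left out; of the 10 highest, 7 to 9 were shared with each alternative, and of the 5 lowest, 5, or 3 without the young sum of experiment 2. The causes were not tested.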
